A study of Sus scrofa with 32 samples.

Results

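Glandular epithelium (GE) and stroma (S) of the endometrium of pregnant gilts (Sus scrofa) were compared within the same animals. The members were the genes that the authors kept in their filtered count table of GE or of S, 13379 of the 30185 genes counted. Of these, 10461 were in both filtered tables, 1444 were in that of GE alone and 1474 in that of S alone. The comparison used 6 of 31 libraries, PG39 and PS39, PG43 and PS43, and PG139 and PS139 (GE and S of 3 pregnant gilts). Prepuberal gilts had been synchronized with eCG followed by hCG, the pregnant ones were then inseminated with semen of a German Landrace boar, and all were killed on Day 14. The 4 cyclic gilts, which served only for the last comparison, had the same hormones but received the sperm-free supernatant of that semen. In pregnant gilts the endometrium came from hyperemic zones, which limits it to sites of that kind. Compartments were cut from cresyl violet stained cryosections by laser capture microdissection, so a library holds every cell within the cut area. A pregnant S library PS41 was used in an alternative only, because its GE library was not analysed here.

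Uterine glands are tubes of secretory epithelium that feed the conceptus before it attaches, and they are known for making uterine secretions such as uteroferrin, the iron-carrying acid phosphatase encoded by ACP5. The stroma around them is a mesenchyme of fibroblasts in collagen, crossed by capillaries and leukocytes. Epithelium and stroma are known to signal to each other: stromal growth factors act on epithelial receptors, and epithelial hedgehog ligands act on stromal receptors. Progesterone acts on the gland largely through the stroma once the nuclear progesterone receptor has declined in the epithelium.

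Library totals were 3442913 to 4788094 counts in GE and 2832169 to 4320928 in S. Levels are given as CPM, counts scaled to a common library size, after TMM scaling over all 31 libraries, always in the order PG39, PG43, PG139 for GE and PS39, PS43, PS139 for S. CPM is not divided by gene length, so levels are compared between libraries and not between genes. Differences are log2 of GE minus S from the edgeR quasi-likelihood fit with the gilt as a block and n = 3 gilts. The ± value is an SE from that fit, the size of the difference divided by the square root of the F statistic. It is not the spread between gilts. The p-values, over all 13379 genes, carry a Benjamini-Hochberg adjustment. A gene is called at a false discovery rate of 1%. A floor of 3 counts over the libraries of a group equals 0.251 CPM in GE and 0.307 CPM in S. Fewer cells of a type and less RNA per cell cannot be told apart in such libraries.

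The cut areas held what their labels said, with some of each other. All 20 epithelial markers passed the filter, and their summed level was 3819, 3862 and 3099 CPM in GE against 82.8, 249.8 and 523 CPM in S. The 20 fibroblast markers summed to 7476, 5493 and 4430 CPM in GE against 105300, 76550 and 50860 CPM in S. The gilt of PG139 thus had the most epithelial and the least fibroblast signal in its S library, and the gilt of PG39 the reverse. Endothelial markers summed to 22.96, 72.39 and 211.7 CPM in GE and to 1095, 2280 and 3348 CPM in S. The blood vessel (BV) libraries of the same gilts held 2153 to 3522 CPM of them, so that PS39 lay below that range and PS43 and PS139 within it. Smooth muscle and pericyte markers summed to 48.05, 57.42 and 92.57 CPM in GE and 750.6, 886.6 and 1905 CPM in S. Leukocyte markers were at 129.2 to 162.8 CPM in GE and 418.9 to 682.3 CPM in S. S libraries therefore held vessel and leukocyte RNA beside that of fibroblasts, and the part of these cells in any gene higher in S was not tested.

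**Figure D1:**
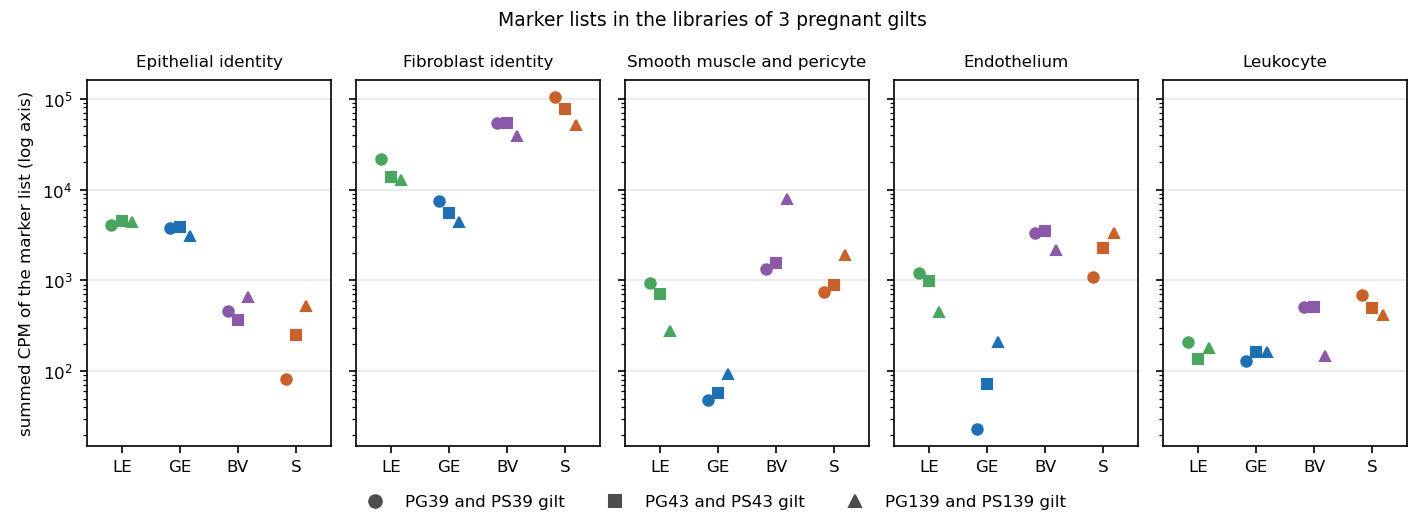
Summed CPM (log axis) of each of 5 marker lists in the luminal epithelium (LE), GE, BV and S libraries of the pregnant gilts; each point is 1 library and its shape gives the gilt. Epithelial markers sit at 3099 to 3862 CPM in GE and at 82.8 to 523 CPM in S, and endothelial markers in S overlap with those in BV.

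Among single epithelial markers, EPCAM, an epithelial adhesion molecule, was at 483, 403 and 329 CPM in GE and 4.2, 9.01 and 36.3 CPM in S (log2 difference 5.01 ± 0.72, adjusted p = 0.00204). CDH1, the adhesion protein E-cadherin, was at 645, 528 and 629 CPM in GE and 11.06, 45 and 126 CPM in S (log2 difference 3.80 ± 0.68, adjusted p = 0.0049). In both the libraries of GE lay above those of S without overlap. The groups did not overlap, in either direction, in 57.5% of all members. Of the 20 epithelial markers 14 were called higher in GE and none lower, with a median log2 difference of 3.66, 13 of the 16 in both tables were called, and 18 of all were called without the gilt of PG139. Of the 20 fibroblast markers 19 were called higher in S and none in GE, with a median of -3.44. MUC1, a membrane mucin, was among the epithelial markers not called, at 385, 221 and 108 CPM in GE and 3.05, 29.1 and 38.4 CPM in S (log2 difference 3.38 ± 0.95, adjusted p = 0.0276).

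Promoters of the epithelial markers are shown because they were searched for the E-box letters CAGGTG, a known binding sequence of the repressors SNAI1 and ZEB1, which mesenchymal cells make, and most of them held it. The window was the 250 bases before the annotated 5′ end of the gene in RefSeq's annotation of Sscrofa11.1, read on the gene's strand, and motifs were searched on both strands. CAGGTG stood in 13 of 19 epithelial marker promoters (68.4%), against 18.3% of the 12374 promoters of all protein-coding members. It stood in 25.0% of the promoters of genes called higher in GE and in 16.0% of those higher in S, and in 5 of 20 promoters of the fibroblast markers (25.0%). A match describes the sequence and says nothing of binding in these cells. In the windows of CDH1 (chr6:18155987-18156236, minus strand) and CLDN4, which encodes a tight junction claudin (chr3:11039461-11039710, plus strand), each given 5′ to 3′, capitals mark CAGGTG or its reverse complement.
CDH1: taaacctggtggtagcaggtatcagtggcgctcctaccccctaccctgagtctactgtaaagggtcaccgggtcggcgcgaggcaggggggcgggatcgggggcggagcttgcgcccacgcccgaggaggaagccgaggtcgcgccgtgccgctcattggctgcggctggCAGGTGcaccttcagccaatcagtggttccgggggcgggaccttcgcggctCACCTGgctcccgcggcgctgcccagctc
CLDN4: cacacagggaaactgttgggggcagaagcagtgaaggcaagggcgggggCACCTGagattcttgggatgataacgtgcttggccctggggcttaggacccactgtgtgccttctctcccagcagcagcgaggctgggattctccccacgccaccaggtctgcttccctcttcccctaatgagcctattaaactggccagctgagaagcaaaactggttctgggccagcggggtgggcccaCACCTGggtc
Both windows held 2 matches. The one nearest to the 5′ end lay 23 bases from it in CDH1 and 4 in CLDN4. The longer motif AACCGGTT, the core recognised by grainyhead-like factors of epithelia, stood in 0 of the 19 windows and in 0.0889% of all promoters, and it does not overlap with the E-box letters.

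Over all members, 3584 genes were called (26.8%), 1587 higher in GE (11.9%) and 1997 higher in S (14.9%). Of the called genes 3583 had the same sign in all 3 gilts, as had 9215 of all members. The median log2 difference over members was 0.024, and the median size of the difference was 0.781 over all and 2.86 over the called. At least 4-fold differences were called in 1058 genes higher in GE and 1589 higher in S. Restricted to genes in both filtered tables, where neither compartment alone let a gene pass, 1042 were called higher in GE and 1201 in S among 10461. The groups did not overlap in 7687 members (57.5%), which is the value to set beside any statement below that the libraries of GE and S did not overlap. Without the gilt of PG43 no gene was called at 1% in the edgeR test, although 2803 were at 5% and the smallest adjusted p was 0.0152. All 3584 called genes kept their sign without any single gilt, and the count was 2419 without the gilt of PG39 and 4158 without the gilt of PG139. Among genes described below, ABHD15, ACVR1B, EMX2, ERBB2, FKBP4, GRN, IGF1R, INSR, LRAT, OXTR, RFX3, TWSG1, WIF1 and WNT6 were not called without the gilt of PG39, and PTGS2 and WIF1 without that of PG139. With PS41 added and no block, CDH1, FZD5, ALDH1A1, GALNT4, LRAT and WIF1 were among those not called.

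**Figure D2:**
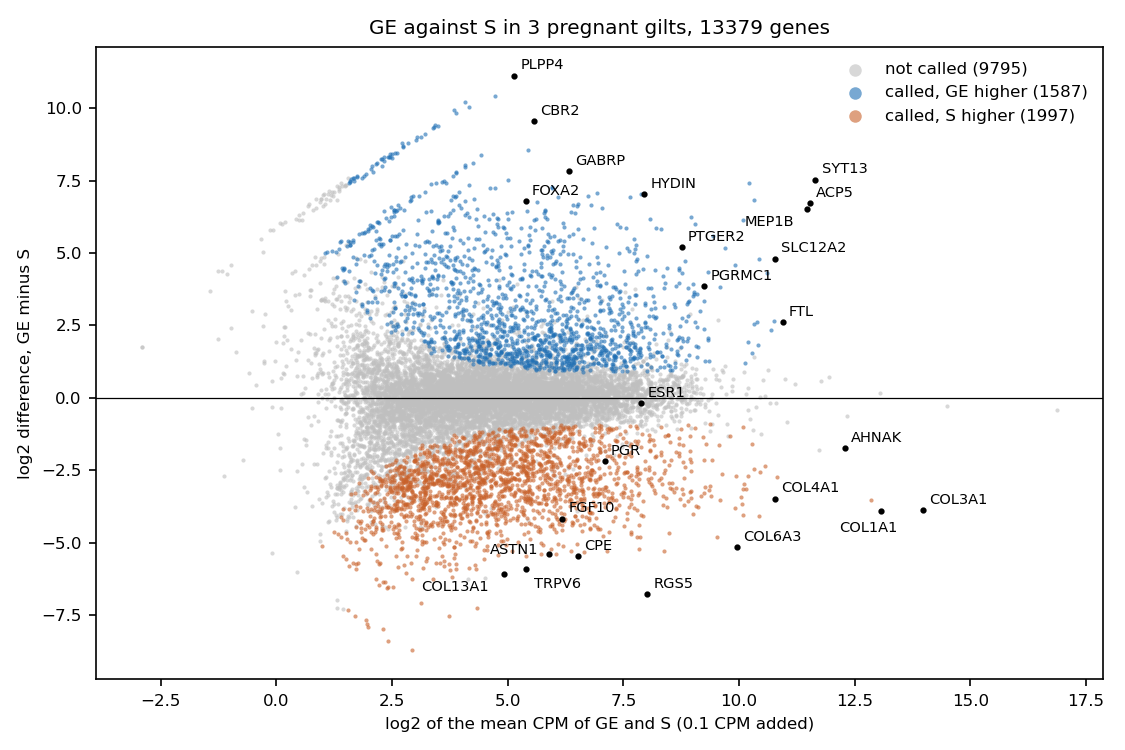
Each point is a gene, with the log2 mean CPM of GE and S on the x axis and the log2 difference of GE minus S on the y axis; blue genes were called higher in GE (1587), orange genes higher in S (1997). SYT13, ACP5 and MEP1B stand out among genes of high CPM on the side of GE, and the collagens COL3A1 and COL1A1 on that of S.

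The largest differences in CPM towards GE were in genes of secretory, transport and iron storage proteins. SYT13 (chromosome 2, 17120127 to 17166997), a member of the synaptotagmin family of vesicle proteins, was at 6170, 9788 and 3196 CPM in GE and 84.3, 56.8 and 5.39 CPM in S (log2 difference 7.53 ± 0.64, adjusted p = 0.000325). ACP5, uteroferrin (chromosome 2, 70206159 to 70209855), was at 4554, 6076 and 6907 CPM in GE and 53.4, 77.3 and 41.2 CPM in S (log2 difference 6.72 ± 0.33, adjusted p = 0.000203). MEP1B, the beta subunit of the metalloprotease meprin (chromosome 6, 116015021 to 116049796), was at 3909, 6412 and 6510 CPM in GE and 35.1, 57.2 and 109 CPM in S (log2 difference 6.52 ± 0.33, adjusted p = 0.000203). For each of these every GE library exceeded every S library. SLC12A2, the basolateral Na-K-Cl cotransporter of secretory epithelia, reached 3742, 4521 and 1830 CPM in GE against 84.7, 85.6 and 221 CPM in S (log2 difference 4.81 ± 0.62, adjusted p = 0.00139). FTL, the light chain of ferritin, was at 3927, 3530 and 2674 CPM in GE and 596, 449 and 632 CPM in S (log2 difference 2.62 ± 0.26, adjusted p = 0.000547). Its level in S was well above the floor.

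Among called genes with a mean of at least 50 CPM in GE, those with the largest relative differences had few counts in S, except SYT13 and LOC100626264. PLPP4, a phospholipid phosphatase (chromosome 14, 130277217 to 130424632), was at 53.4, 34.5 and 122 CPM in GE and had 0 counts in all 3 S libraries, so that it was at least 228-fold higher in GE against the floor of S. The lncRNA LOC106509981 (chromosome 4, 18414326 to 18418335) also had 0 counts in S and was at 10.9, 146 and 2.43 CPM in GE, at least 173-fold higher, with most of that level from the gilt of PG43. CBR2, a carbonyl reductase, was at 75, 69.6 and 137 CPM in GE and had 1 count in S, a ratio of pooled CPM of 970 with a 95% interval from counting of 174 to 38300. CFAP47, a protein of the ciliary axoneme, was at 82.5, 37 and 139.6 CPM with 2 counts in S, a ratio of 458 (126 to 3780). ECT2L was at 74.5, 24.1 and 91.5 CPM with 3 counts in S, a ratio of 221 (75.3 to 1070). GABRP, a subunit of the GABA type A receptor found in epithelia, was at 114, 302 and 64 CPM in GE and 0.763, 1.04 and 0.234 CPM in S (log2 difference 7.83 ± 0.33, adjusted p = 0.000203). The lncRNA LOC100626264 (chromosome 15, 38096027 to 38099470) was at 1981, 4335 and 788 CPM in GE and 20.2, 35 and 0.937 CPM in S (log2 difference 7.41 ± 0.58, adjusted p = 0.000277). The GE levels of these genes differed between gilts, but in each gilt GE exceeded S. The S library PS41, which was not in the test, held 12.7 CPM of PLPP4, 50.3 of GABRP and 587 of LOC100626264, beside an epithelial marker sum of 846.6 CPM. With PS41 added and no block the adjusted p was 0.0161 for PLPP4, 0.0581 for GABRP, 0.0741 for LOC100626264 and 0.0713 for LOC106509981, and without the block alone it was 0.0337 for LOC106509981. Intervals and floors cover counting error only.

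Towards S, the largest relative differences included genes known from pericytes, smooth muscle and vessels. RGS5, a regulator of G protein signalling known as a pericyte marker (chromosome 4, 87286953 to 87340816), was at 1.87, 2.75 and 7.9 CPM in GE and 201, 222 and 1110 CPM in S (log2 difference -6.78 ± 0.30, adjusted p = 0.000203). The gilt of PG139, whose S library had the highest pericyte and endothelial sums, also had the highest RGS5. The pericyte and smooth muscle genes ACTA2 (-5.45 ± 0.60) and MCAM (-5.43 ± 0.34) and the vessel collagen COL15A1 (-5.38 ± 0.27) were called in the same direction. COL13A1, a transmembrane collagen, was at 0, 0.916 and 1.42 CPM in GE and 21, 105 and 52.9 CPM in S (log2 difference -6.09 ± 0.49, adjusted p = 0.000291). CPE, carboxypeptidase E, was at 3.74, 3.05 and 4.25 and 113, 118 and 305 CPM (log2 difference -5.47 ± 0.34, adjusted p = 0.000214), and ASTN1, an adhesion protein known from neurons, at 1.07, 3.36 and 3.65 and 119, 132 and 95.1 CPM (log2 difference -5.38 ± 0.39, adjusted p = 0.000242). TRPV6, an epithelial calcium channel, was also among them, at 0.267, 0.916 and 2.84 CPM in GE and 13.7, 98 and 136 CPM in S (log2 difference -5.90 ± 0.34, adjusted p = 0.000203). Its mean in LE of the same gilts was 1416 CPM. The epithelial, endothelial and pericyte sums had the same order over PS39, PS43 and PS139, while PS41, with the highest epithelial sum, held 124 CPM of TRPV6. The part of any of these cells in its level in S was not tested.

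The largest differences in CPM towards S were led by collagens. COL3A1 (chromosome 15, 93556914 to 93595678), a fibrillar collagen, was at 2804, 2047 and 1154 CPM in GE and 44220, 30980 and 15900 CPM in S (log2 difference -3.87 ± 0.23, adjusted p = 0.000203). COL1A1 and COL1A2, the chains of type I collagen, differed by -3.92 ± 0.23 and -3.53 ± 0.23. AHNAK, a large scaffold protein, was at 2853, 1878 and 2165 CPM in GE and 8394, 8342 and 6272 CPM in S (log2 difference -1.72 ± 0.23, adjusted p = 0.00147). All GE libraries thus contained collagen transcripts, and in COL3A1, COL1A1 and COL1A2 the gilt of PG39 was highest and the gilt of PG139 lowest in both compartments.

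Matrix genes went almost uniformly to S. Of 42 listed genes of the stromal matrix, 41 passed the filter, 33 were called higher in S and none in GE, with a median log2 difference of -3.05. Among the 37 with both filters passed, 32 were called higher in S. All 11 fibrillar and related collagens measured were called. COL6A3, which forms beaded filaments, was at 54.2, 50.7 and 51.5 CPM in GE and 1432, 2397 and 1954 CPM in S (log2 difference -5.15 ± 0.28, adjusted p = 0.000203). Of the proteoglycans and glycoproteins, DCN (decorin, -2.72 ± 0.23), LUM (lumican, -3.14 ± 0.20), FN1 (fibronectin, -2.34 ± 0.22) and SPARC (-4.09 ± 0.22) had the highest CPM of those called. FMOD, fibromodulin, was not called, at 40.9, 59.9 and 91.2 CPM in GE and 71.7, 48.5 and 19 CPM in S. P4HA1, a subunit of collagen prolyl hydroxylase, was higher in every GE library without a call, at 168, 178 and 188 CPM against 109, 92.5 and 69.8 CPM (log2 difference 1.02 ± 0.22, adjusted p = 0.0106), while its relative P4HA2 was called higher in S (-2.26 ± 0.25).

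Basement membrane genes were also mostly on the stromal side. Of 21 listed, 18 passed, 14 were called higher in S and 1 in GE, against 13 and 1 of the 17 in both tables. COL4A1, a chain of the network-forming type IV collagen, was at 235, 322 and 301 CPM in GE and 2864, 3242 and 3528 CPM in S (log2 difference -3.47 ± 0.21, adjusted p = 0.000214). HSPG2, the proteoglycan perlecan, was at 210.4, 238 and 202 CPM in GE and 1817, 2206 and 1825 CPM in S (log2 difference -3.14 ± 0.20, adjusted p = 0.000228). The levels of COL4A1 in BV averaged 3392 CPM, and vessels also have basement membranes. LAMA3, a laminin chain of epithelia, had its highest levels in PG39 and PG43 but was not called, at 781, 697 and 235 CPM against 98, 137 and 163 CPM (log2 difference 2.001 ± 0.50, adjusted p = 0.0177).

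Matrix proteases and their inhibitors followed the matrix, with 1 exception of high CPM. Of 27 listed genes 22 passed, 16 were called higher in S and 1 in GE, against 11 and 1 of the 16 in both tables. MMP2, the gelatinase of fibroblasts, was at 176, 173 and 171 CPM in GE and 2151, 2283 and 1373 CPM in S (log2 difference -3.42 ± 0.24, adjusted p = 0.000239), and its activator MMP14 differed by -3.27 ± 0.27. TIMP3, an inhibitor bound to the matrix, was at 53.1, 68.4 and 104 CPM in GE and 752, 1029 and 1228 CPM in S (log2 difference -3.74 ± 0.21, adjusted p = 0.000203). TIMP2 had the opposite direction, with 2106, 3541 and 3257 CPM in GE and 542, 512 and 373 CPM in S (log2 difference 2.65 ± 0.28, adjusted p = 0.000635). The inhibitors TIMP2 and TIMP3 were therefore both above 50 CPM in every library but lay on opposite sides.

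Genes of motile cilia, the beating cilia that some cells of uterine epithelium carry, were higher in GE. Of 20 listed genes 17 passed the filter, 13 of them through the GE table alone, and 17 were called higher in GE. All 4 in both tables were called, and these did not depend on passing the filter in GE. HYDIN, a protein of the central pair of the axoneme, was at 474, 201 and 796 CPM in GE and 8.77, 2.08 and 1.41 CPM in S (log2 difference 7.04 ± 0.65, adjusted p = 0.000399). DNAH5, an outer arm dynein, was at 172, 77.3 and 242 CPM in GE and 3.05, 0.346 and 2.58 CPM in S (log2 difference 6.42 ± 0.35, adjusted p = 0.000203). FOXJ1, the transcription factor that switches cells to motile cilia, was at 55.5, 23.8 and 110.0 CPM in GE and 2.29, 0.346 and 0.234 CPM in S (log2 difference 6.17 ± 0.65, adjusted p = 0.000634). In all 3 genes the gilt of PG43 had the lowest and the gilt of PG139 the highest level in GE. RFX3, a ciliary factor that also acts in other cells, differed less, at 192, 127.7 and 171 CPM against 77.8, 61.7 and 47.3 CPM (log2 difference 1.43 ± 0.23, adjusted p = 0.00306). The binding motif of RFX factors (GTTNCC, 0 to 3 bases, GGNAAC) stood in 1 of 17 cilia promoters (5.88%), that of SPAG17, and in 0.574% of all. The same genes were also higher in GE than in LE, by log2 differences of 4.74 in HYDIN, 4.63 in DNAH5 and 4.31 in FOXJ1, with adjusted p-values of 0.00377, 0.000427 and 0.00268.

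Transcription factors divided by compartment. Of 9 listed regulators of glands 7 passed, 5 were called higher in GE and none in S, against 4 and none of the 6 in both tables. FOXA2, which glands need to form, was at 75, 75.8 and 97.4 CPM in GE and 1.14, 0.693 and 0.469 CPM in S (log2 difference 6.80 ± 0.37, adjusted p = 0.000203). PAX2 was at 99.8, 67.8 and 95.6 CPM in GE and 1.14, 3.46 and 8.67 CPM in S (log2 difference 4.38 ± 0.50, adjusted p = 0.000876). SOX17 differed by 2.24 ± 0.38 and EMX2 by 1.21 ± 0.20. FOXA2 was also higher in GE than in LE, where its mean was 2.42 CPM, by 5.38 (adjusted p = 0.00101), whereas PAX2 had a mean of 79 CPM in LE and was not called between both epithelia. KLF5 was higher in every GE library without a call, at 104, 62 and 91.2 CPM against 6.1, 14.9 and 42.6 CPM (log2 difference 2.28 ± 0.55, adjusted p = 0.0158).

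Of 15 listed mesenchymal regulators 14 passed, 11 were called higher in S and 1 in GE, against 8 and 1 of the 10 in both tables. HAND2, the progesterone-induced factor of stroma, was at 1.33, 0.916 and 2.43 CPM in GE and 31.3, 29.4 and 47.3 CPM in S (log2 difference -4.49 ± 0.32, adjusted p = 0.000239). NR2F2, which relays hedgehog signals in stroma, was at 59.8, 48.9 and 69.5 CPM in GE and 544, 479 and 465 CPM in S (log2 difference -3.05 ± 0.22, adjusted p = 0.000239). HOXA10 (-2.79 ± 0.27) and HOXD10 (-3.88 ± 0.25), homeobox genes that pattern the uterus, were called in the same direction. MSX1 was the listed regulator called in GE, at 73.2, 59.6 and 94.6 CPM against 1.14, 1.73 and 4.45 CPM (log2 difference 4.97 ± 0.36, adjusted p = 0.000242). It is a homeobox factor known in uterine epithelium as well as in mesenchyme.

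Of 13 listed steroid receptors 11 passed, 2 were called higher in GE, 1 in S and 8 in neither direction, a share near that of all genes. PGR, the nuclear progesterone receptor, was at 46.7, 43.1 and 56.3 CPM in GE and 276, 199 and 199 CPM in S (log2 difference -2.17 ± 0.22, adjusted p = 0.00059), without overlap. Its transcripts were thus counted in the GE libraries well above the floor. GE libraries also held fibroblast markers, and the part of stromal RNA in the PGR level there was not tested. The membrane-associated progesterone binding protein PGRMC1 was at 1144, 1215 and 1023 CPM in GE and 67.5, 65.8 and 108 CPM in S (log2 difference 3.86 ± 0.29, adjusted p = 0.00025). PAQR5, a membrane progestin receptor, was at 104, 79.4 and 118 CPM in GE and 2.67, 4.16 and 6.33 CPM in S (log2 difference 4.52 ± 0.31, adjusted p = 0.000231). Of the other membrane progestin receptors, PGRMC2 (0.54 ± 0.22), PAQR7 (-1.26 ± 0.42) and PAQR8 (-0.65 ± 0.46) were not called. ESR1, the oestrogen receptor alpha, was at 274, 168 and 225 CPM in GE and 279.6, 212 and 259 CPM in S (log2 difference -0.17 ± 0.19, adjusted p = 0.525). NR3C1, the glucocorticoid receptor, differed by -0.44 ± 0.20 without a call. Of 9 coregulators and chaperones FKBP4, a cochaperone of the progesterone receptor, was the gene called, at 91.3, 118 and 56.7 CPM in GE against 31.7, 31.5 and 23.9 CPM in S (log2 difference 1.58 ± 0.23, adjusted p = 0.00217).

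In the fit of all 3 gilts, the ligands called in the FGF, IGF and EGF families were higher in S and the receptors called higher in GE. FGF10, a ligand of FGFR2, was at 8.01, 6.11 and 8.3 CPM in GE and 128.5, 127 and 155 CPM in S (log2 difference -4.17 ± 0.23, adjusted p = 0.000203). HGF, the ligand of MET, was at 2.14, 6.41 and 6.28 CPM in GE and 42, 21.8 and 69.6 CPM in S (log2 difference -3.11 ± 0.49, adjusted p = 0.00293), and FGF2 differed by -2.84 ± 0.25. On the receptor side FGFR2 was at 124, 92.2 and 88.5 CPM in GE and 3.43, 3.46 and 10.1 CPM in S (log2 difference 4.21 ± 0.44, adjusted p = 0.000641). FGFR3 was at 33.1, 122 and 37.7 CPM in GE and 1.53, 1.73 and 0.703 CPM in S (log2 difference 5.51 ± 0.39, adjusted p = 0.000239). Of 6 ligands measured 3 were called higher in S and none in GE, and of 6 receptors 2 were called higher in GE and none in S. Without the gilt of PG139, 3 of the ligands were called higher in S and 2 in GE, and 3 of the receptors in GE. The direction of the FGF and HGF ligands called thus depended on that gilt. Among the 4 ligands and 4 receptors in both tables, 3 ligands were called higher in S and 1 receptor higher in GE. FGF7, a further FGFR2 ligand known from mesenchyme, was not called, at 163, 116 and 52.7 CPM in GE and 6.48, 30.5 and 47.3 CPM in S (log2 difference 2.07 ± 0.80, adjusted p = 0.079), and it averaged 628 CPM in LE. MET was not called either, at 193, 129 and 98.6 CPM in GE and 21.7, 67.9 and 157 CPM in S, with a mean of 1015 CPM in LE. In S both FGF7 and MET were lowest in the gilt of PG39 and highest in the gilt of PG139, as were the epithelial, endothelial and pericyte sums, and PS41 held 68.6 CPM of FGF7 and 69.6 CPM of MET.

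The insulin-like growth factors were stromal and their signalling receptors higher in GE. IGF1 was at 106, 125 and 77.2 CPM in GE and 1146, 1671 and 515 CPM in S (log2 difference -3.28 ± 0.26, adjusted p = 0.000284). IGF2 was at 4.27, 12.5 and 14 CPM in GE and 148, 188 and 160.5 CPM in S (log2 difference -4.08 ± 0.34, adjusted p = 0.00031). IGF1R, the receptor of both, was at 564, 609 and 791 CPM in GE and 203, 259.8 and 358 CPM in S (log2 difference 1.30 ± 0.20, adjusted p = 0.00265). INSR, the insulin receptor, was at 334, 314 and 355 CPM in GE and 127.8, 132 and 121 CPM in S (log2 difference 1.42 ± 0.19, adjusted p = 0.00161). These receptor differences were smaller than those of the ligands but without overlap between GE and S. Of 6 binding proteins measured, 3 of them through the S table alone, 4 were called higher in S and none in GE. Among the 3 in both tables, 2 were called higher in S and none in GE (over all genes 14.9% and 11.9%). Those called were led by IGFBP7 at 76.1, 59.6 and 99.7 CPM in GE and 638, 733 and 1374 CPM in S (log2 difference -3.47 ± 0.25, adjusted p = 0.000239).

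All 4 ERBB receptors, the receptors of the EGF family, were called higher in GE, and all 4 were in both tables. EGFR was at 386, 367 and 271 CPM in GE and 76.7, 67.9 and 39.4 CPM in S (log2 difference 2.54 ± 0.21, adjusted p = 0.000292). ERBB3, a receptor of neuregulins, was at 543, 753 and 538 CPM in GE and 9.92, 36 and 87.6 CPM in S (log2 difference 4.20 ± 0.62, adjusted p = 0.00231). ERBB4 differed by 3.52 ± 0.43 and ERBB2, the coreceptor without a ligand of its own, by 1.46 ± 0.22. Of 6 ligands measured only NRG1, neuregulin 1, was called, and it was higher in S, at 38.5, 91.1 and 148 CPM against 1.87, 7.03 and 15.8 CPM in GE (log2 difference -3.63 ± 0.28, adjusted p = 0.000256). NRG1 was lowest in the gilt of PG39 and highest in the gilt of PG139 in both compartments. EREG, epiregulin, was at 4.27, 3.97 and 26.5 CPM in GE and 1.91, 0 and 0 CPM in S without a call (adjusted p = 0.036).

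**Figure D3:**
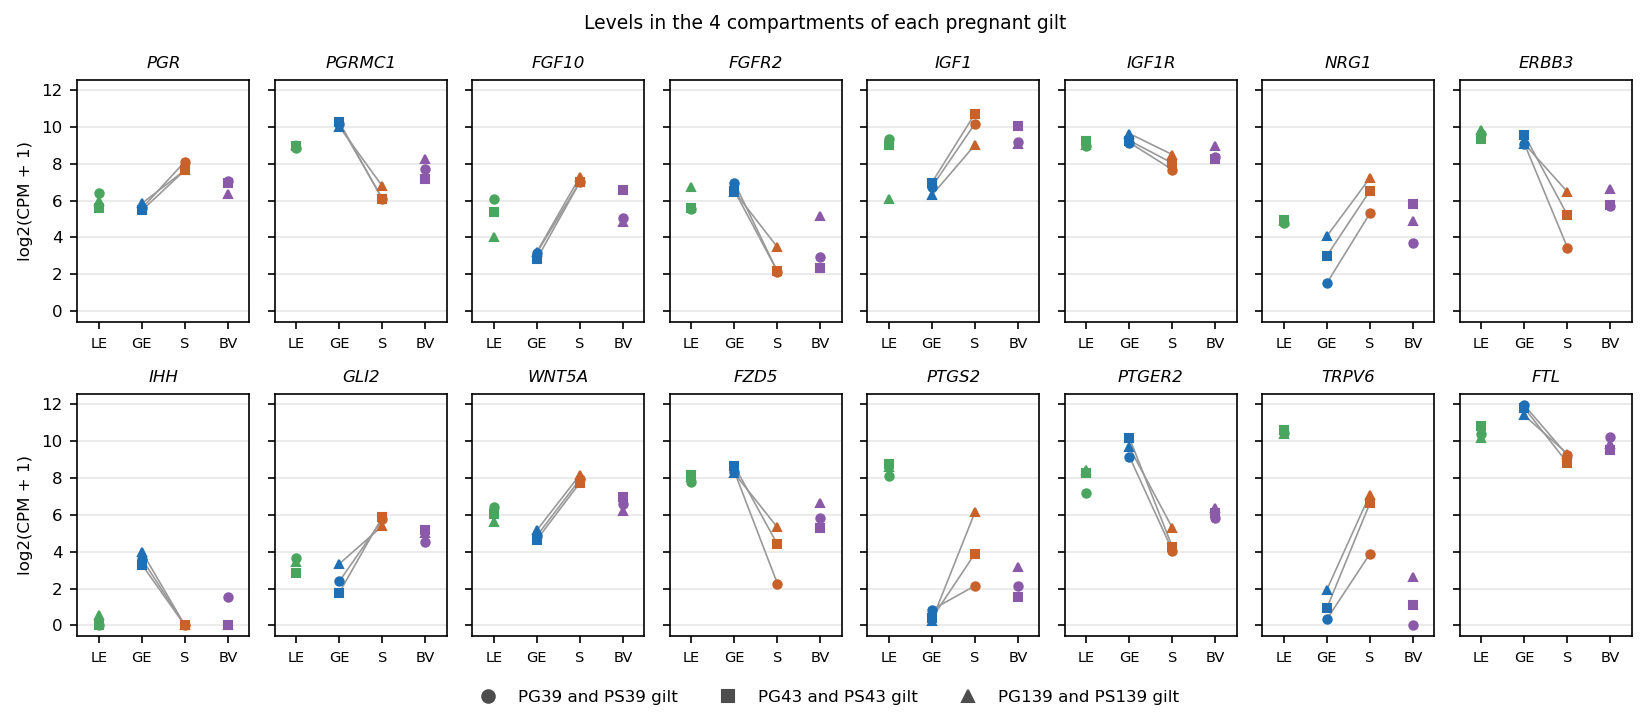
Levels as log2(CPM + 1) of 16 genes in LE, GE, S and BV; shapes give the 3 pregnant gilts and grey lines join GE and S of a gilt. The ligands FGF10, IGF1, NRG1 and WNT5A are higher in S than in GE of every gilt, the receptors FGFR2, IGF1R, ERBB3 and FZD5 are higher in GE, and PTGS2 and TRPV6 are highest in LE.

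Hedgehog signalling was represented by 1 ligand. IHH, Indian hedgehog, was at 11.2, 8.86 and 15 CPM in GE and had 0 counts in the S libraries, at least 38.1-fold higher against the floor, with an adjusted p of 0.00298. IHH passed the filter through the GE table alone. It averaged 0.167 CPM in LE, below the floor of 0.292 CPM there, and the call of GE over LE had an adjusted p of 0.00561. SMO, the transducer of the signal, was at 7.74, 5.19 and 7.9 CPM in GE and 36.2, 41.6 and 29.8 CPM in S (log2 difference -2.32 ± 0.30, adjusted p = 0.00143). GLI2, a transcription factor of the pathway, was at 4.27, 2.44 and 9.12 CPM in GE and 52.6, 58.2 and 41.2 CPM in S (log2 difference -3.28 ± 0.46, adjusted p = 0.00181). PTCH1, receptor and target of the pathway, was at 115, 86.1 and 73.9 CPM in GE and 104, 84.2 and 82.7 CPM in S (log2 difference 0.03 ± 0.20, adjusted p = 0.919). Its levels overlapped between the compartments, and the difference changed sign with some of the alternatives.

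Wnt ligands and secreted inhibitors were largely stromal. Of 4 ligands measured, 2 of them through the S table alone, 3 were called higher in S, and so were the 2 in both tables. Those called were WNT5A at 28, 24.1 and 34.8 CPM in GE and 241, 212 and 286 CPM in S (log2 difference -3.07 ± 0.20, adjusted p = 0.000228), WNT2 (-3.49 ± 0.22) and WNT6 (-3.67 ± 0.76). Of 14 receptors 4 were called higher in GE and 3 in S, against 4 and 2 of the 11 in both tables (over all genes 11.9% and 14.9%). LGR4, a receptor of R-spondins, was at 789, 918 and 652 CPM in GE and 61.4, 50.2 and 42.4 CPM in S (log2 difference 3.96 ± 0.23, adjusted p = 0.000203). FZD5 was at 325, 402 and 304 CPM in GE and 3.81, 20.1 and 38.9 CPM in S (log2 difference 4.36 ± 0.63, adjusted p = 0.00209), and FZD3 and FZD8 differed by 2.66 ± 0.23 and 2.32 ± 0.33. FZD4 (-2.90 ± 0.42) and ROR1 (-3.73 ± 0.27) were on the stromal side. Of 8 secreted inhibitors 5 were called higher in S and 1 in GE, against 4 and none of the 4 in both tables. DKK1 was at 20, 30.2 and 18.6 CPM in GE and 330.3, 435 and 313 CPM in S (log2 difference -3.96 ± 0.22, adjusted p = 0.000203), and FRZB differed by -3.58 ± 0.33. WIF1 was the inhibitor called in GE, at 14.2, 3.36 and 6.68 CPM against 1.14, 0.693 and 0.469 CPM (log2 difference 3.31 ± 0.60, adjusted p = 0.00521). LEF1, a transcription factor of the canonical pathway, was at 1173, 1361 and 529 CPM in GE and 210.2, 211 and 146 CPM in S (log2 difference 2.37 ± 0.25, adjusted p = 0.000666), and AXIN2, a common target, at 33.4, 17.4 and 41.9 and 16.4, 23.6 and 44.7 CPM without a call (log2 difference 0.17 ± 0.33, adjusted p = 0.709).

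In the TGF-beta family 16 of 29 genes measured were called higher in S and 4 in GE, against 13 and 3 of the 23 in both tables. TGFB1 was at 5.61, 9.77 and 8.91 CPM in GE and 49.6, 62 and 85.5 CPM in S (log2 difference -3.00 ± 0.26, adjusted p = 0.000333). TGFBR2, its type II receptor, was at 43, 60.2 and 68.3 CPM in GE and 531, 496 and 522 CPM in S (log2 difference -3.17 ± 0.23, adjusted p = 0.000242). BMP4 differed by -2.46 ± 0.36 and FST, the activin antagonist follistatin, by -2.33 ± 0.37. On the side of GE were INHBB, the beta B subunit of activin, at 59, 57.7 and 66.6 CPM against 2.29, 6.58 and 3.28 CPM (log2 difference 3.99 ± 0.37, adjusted p = 0.000399), and the BMP receptor BMPR1B at 126, 177 and 134 CPM against 4.58, 17 and 23.9 CPM (log2 difference 3.43 ± 0.44, adjusted p = 0.00134). ACVR1B (1.31 ± 0.25) and the BMP modulator TWSG1 (1.37 ± 0.26) were the others called higher in GE.

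**Figure D4:**
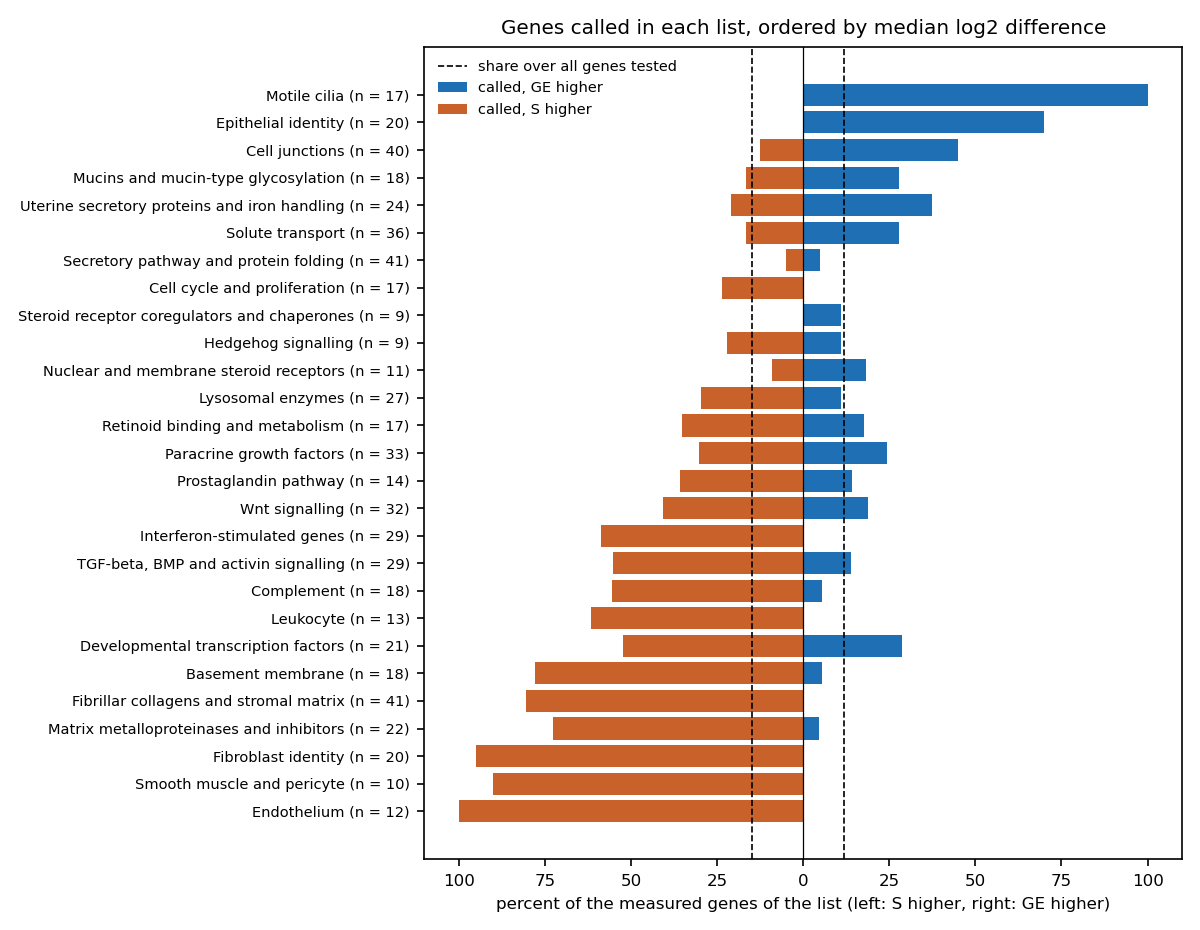
Percent of the measured genes of each list called higher in S (left, orange) and higher in GE (right, blue); dashed lines mark the shares over all genes tested, 14.9% and 11.9%. Lists are ordered by their median log2 difference, with motile cilia and epithelial markers at the top and endothelial markers at the bottom.

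Secreted proteins of the uterus were not a uniform group. Of 20 listed 15 passed, 5 were called higher in GE and 3 in S, against 5 and 2 of the 10 in both tables. Beside ACP5, RBP4, the retinol binding protein of uterine secretions, was at 2899, 3915 and 1943 CPM in GE and 48.8, 158 and 408 CPM in S (log2 difference 4.31 ± 0.75, adjusted p = 0.00445). CLU, the chaperone clusterin, was at 1834, 1080 and 756 CPM in GE and 47.7, 39.1 and 99.6 CPM in S (log2 difference 4.36 ± 0.52, adjusted p = 0.00103). SAL1, salivary lipocalin, was at 28.6, 134 and 423 CPM in GE and 4.2, 4.5 and 0.703 CPM in S (log2 difference 5.49 ± 1.03, adjusted p = 0.00614). SAL1 differed between the GE libraries more than the other secreted proteins called. GRN, progranulin, was at 488, 462 and 479 CPM in GE and 186, 197 and 214 CPM in S (log2 difference 1.28 ± 0.19, adjusted p = 0.0025). The protease inhibitor CST3, cystatin C, went the other way (-2.39 ± 0.22), and SLPI, a secreted inhibitor of leukocyte protease, was at 13.6, 60.2 and 262 and 9.92, 2.42 and 34.2 CPM without a call (log2 difference 2.63 ± 0.68, adjusted p = 0.0203).

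Iron handling genes were called in both directions, 4 of 9 measured higher in GE and 2 in S, against 3 and 2 of the 8 in both tables. FTH1, the heavy chain of ferritin, was at 3066, 2835 and 2364 CPM in GE and 569.8, 471 and 611 CPM in S (log2 difference 2.35 ± 0.23, adjusted p = 0.000524). TFRC, the transferrin receptor, was at 286, 301 and 332 CPM in GE and 14.1, 40.9 and 95.6 CPM in S (log2 difference 2.96 ± 0.49, adjusted p = 0.00373), and CP, the ferroxidase ceruloplasmin, at 53.1, 50.1 and 153 and 2.29, 7.28 and 3.75 CPM (log2 difference 4.21 ± 0.51, adjusted p = 0.00106). SLC40A1, the iron exporter ferroportin, was higher in S, at 331, 304 and 273 CPM against 75, 70.9 and 45.6 CPM in GE (log2 difference -2.25 ± 0.22, adjusted p = 0.000492). The other gene called in S was SLC39A8, a metal uptake transporter (-3.50 ± 0.28). The uptake transporters SLC11A2 (1.44 ± 0.37) and SLC39A14 (-0.70 ± 0.25) were not called.

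Few genes of the machinery of secretion itself were called. Of 42 listed genes 41 passed, 2 were called higher in GE, 2 in S and 37 in neither, fewer than the 26.8% called among all genes. None of the 16 ER chaperones measured was called at 1%, and CANX, calnexin, which had the highest CPM of them, was at 583, 587 and 532 CPM in GE and 350.5, 342 and 434 CPM in S (log2 difference 0.63 ± 0.21, adjusted p = 0.0514). BHLHA15, the transcription factor MIST1 of secretory cells, was called, at 171, 241 and 133 CPM in GE and 3.05, 2.77 and 0.234 CPM in S (log2 difference 6.68 ± 0.47, adjusted p = 0.000239). It averaged 4.25 CPM in LE and was higher in GE than there (5.38, adjusted p = 0.00415). ERN1, the sensor IRE1 of unfolded proteins, differed by 1.67 ± 0.22. Of the 27 lysosomal genes 3 were called higher in GE and 8 in S (over all genes 11.9% and 14.9%). LIPA, lysosomal acid lipase, had the highest CPM of those called in GE, at 1243, 1158 and 612 CPM against 105, 102 and 175 CPM (log2 difference 2.99 ± 0.42, adjusted p = 0.00186), and CTSB, cathepsin B, was higher in S (-1.28 ± 0.23).

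Cell junctions differed by kind. Of 19 tight junction genes measured 10 were called higher in GE and 1 in S, and of 8 desmosome genes 6 and none. Among those in both tables it was 6 and 0 of 12 and 3 and 0 of 5. CLDN3 was at 148, 178 and 182 CPM in GE and 6.1, 7.28 and 9.14 CPM in S (log2 difference 4.51 ± 0.24, adjusted p = 0.000203), and CLDN4 at 205, 281 and 199 and 8.77, 20.1 and 42.9 CPM (log2 difference 3.48 ± 0.48, adjusted p = 0.00174). DSP, desmoplakin, was at 469.6, 525 and 378 CPM in GE and 10.7, 18.4 and 44.3 CPM in S (log2 difference 4.43 ± 0.51, adjusted p = 0.000876). CLDN11 was the claudin called in S, at 8.39, 15.2 and 9.84 CPM with 1 count in GE, a pooled ratio of 132 with an interval of 23.2 to 5260. TJP1, the scaffold ZO-1 found also outside epithelia, was not called, at 346, 367 and 331 and 371, 445 and 735 CPM (log2 difference -0.48 ± 0.27, adjusted p = 0.197). Among adherens junction genes CDH1 was opposed by CDH11, the cadherin of mesenchyme, at 10.4, 7.94 and 19 CPM in GE and 208, 115 and 123 CPM in S (log2 difference -3.56 ± 0.35, adjusted p = 0.000499). The gap junction gene GJA1, connexin 43, was higher in S, at 282, 224 and 489.6 CPM against 36.8, 31.5 and 27.9 CPM in GE (log2 difference -3.27 ± 0.34, adjusted p = 0.000587).

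Of the ion and water transport genes 26 were listed, 14 passed, 8 were called higher in GE and 2 in S, against 7 and 0 of the 8 in both tables. Beside SLC12A2, CFTR, the apical chloride channel, was at 47.5, 47.6 and 82.6 CPM in GE and 0.381, 1.73 and 0.937 CPM in S (log2 difference 5.86 ± 0.43, adjusted p = 0.000242). AQP3, a water and glycerol channel, was at 68.6, 44.9 and 7.7 CPM in GE and 2.29, 0.693 and 0 CPM in S (log2 difference 5.49 ± 0.46, adjusted p = 0.000306), with the gilt of PG139 lowest. PS41 held 65.3 CPM of AQP3 and 18.9 CPM of CFTR, and with PS41 added and no block neither was called (adjusted p = 0.514 and 0.0176). SLC12A2 and CFTR are known for driving chloride and fluid secretion in epithelia. Of 16 amino acid transporters measured 2 were called in each direction, near the shares over all genes (11.9% higher in GE and 14.9% in S). Among the 12 in both tables, 2 were called higher in GE and 1 in S. SLC38A1, a sodium-coupled glutamine transporter, was at 579, 821 and 1248 CPM in GE and 29, 28.1 and 42.6 CPM in S (log2 difference 4.71 ± 0.24, adjusted p = 0.000203), SLC6A6, the taurine transporter, was also higher in GE (2.15 ± 0.27), and SLC1A3, a glutamate transporter, was higher in S (-3.29 ± 0.40). Of the glucose transporters SLC2A3 was higher in S (-4.00 ± 0.38). SLC2A1 was not called, at 124, 101 and 106 CPM in GE and 12.2, 96 and 149 CPM in S (log2 difference 0.80 ± 0.72, adjusted p = 0.418), with a mean of 1247 CPM in LE.

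Of the genes of mucin-type glycosylation 5 of 15 enzymes measured were called higher in GE and 3 in S, and none of the 3 mucins. Among the 9 enzymes in both tables, 4 were called higher in GE and 1 in S (over all genes 11.9% and 14.9%). FUT2, which makes fucosylated secreted glycans, was at 30.7, 13.7 and 168 CPM in GE and 1.53, 3.81 and 9.37 CPM in S (log2 difference 3.54 ± 0.50, adjusted p = 0.00194), and it was not called without the block (adjusted p = 0.0192). GALNT4 was at 54.2, 179 and 74.9 CPM in GE and 21.4, 19.8 and 15.9 CPM in S (log2 difference 2.28 ± 0.37, adjusted p = 0.00327), whereas GALNT7, an enzyme of the same family, was higher in S (-3.89 ± 0.38). MUC4, a membrane mucin, was at 6.67, 1.83 and 2.43 CPM in GE and 2.67, 29.8 and 72.4 CPM in S without a call (log2 difference -2.80 ± 1.17, adjusted p = 0.0986), and at a mean of 743 CPM in LE.

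Of 6 genes of prostaglandin synthesis measured 3 were called higher in S and none in GE, against 1 and none of the 4 in both tables. The other 2 synthesis genes measured passed the filter through the S table alone. Receptors measured were 4, all in both tables, with 2 called higher in GE and 1 in S. PTGS2, the inducible cyclooxygenase, was close to the floor in GE, at 0.801, 0.305 and 0.203 CPM, and at 3.43, 13.9 and 69.3 CPM in S (log2 difference -5.72 ± 0.98, adjusted p = 0.00415). The epithelial, endothelial and pericyte sums had the same order over these libraries. LE of the same gilts averaged 368 CPM, and PS41 held 38.9 CPM. ABCC4, an exporter of prostaglandins, had the same order in S, at 1.87, 2.75 and 4.66 CPM in GE, 28.6, 85.2 and 135 CPM in S (log2 difference -4.63 ± 0.31, adjusted p = 0.000229) and a mean of 372 CPM in LE. Without the gilt of PG139 the difference of PTGS2 was -3.58 (adjusted p = 0.0152). The part of luminal epithelium or vessels in the S values of both was not tested. PTGIS, prostacyclin synthase, was at 13.3, 14.7 and 19 CPM in GE and 192, 199 and 159 CPM in S (log2 difference -3.52 ± 0.25, adjusted p = 0.000239), with a lower mean in LE, 32.3 CPM, and a higher mean in BV, 361 CPM. PTGER2, a receptor of prostaglandin E2, was at 570.2, 1153 and 802 CPM in GE and 15.6, 18 and 38 CPM in S (log2 difference 5.20 ± 0.38, adjusted p = 0.000242). PTGER4, another, was at 51.5, 54.7 and 38.1 CPM in GE and 5.72, 7.97 and 9.84 CPM in S (log2 difference 2.61 ± 0.33, adjusted p = 0.00119). OXTR, the oxytocin receptor, was higher in S (-2.59 ± 0.46), and HPGD, which inactivates prostaglandins, was at 58.5, 41.5 and 73.5 and 29.4, 48.5 and 72.9 CPM without a call.

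Retinoid genes differed in their enzymes. ALDH1A1, a retinaldehyde dehydrogenase, was at 471, 552 and 231 CPM in GE and 111, 98.7 and 34.7 CPM in S (log2 difference 2.46 ± 0.22, adjusted p = 0.000363). ALDH1A2, which catalyses the same step, was at 24.3, 12.2 and 42.1 CPM in GE and 362, 263 and 221 CPM in S (log2 difference -3.52 ± 0.41, adjusted p = 0.000961). LRAT, which stores retinol as esters, was higher in GE (2.89 ± 0.57). STRA6, the receptor that takes up retinol from RBP4, was at 5.07, 15.3 and 12.4 CPM in GE and 46.1, 182 and 161 CPM in S (log2 difference -3.49 ± 0.24, adjusted p = 0.000231), opposite to RBP4 itself. The cellular binding protein CRABP1 had 3 counts in GE, with a pooled ratio of S to GE of 56.3 (18.9 to 276).

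Interferon-stimulated genes, where called, were higher in S. Of 32 listed 29 passed, 17 were called higher in S and none in GE, with a median log2 difference of -1.71, and 16 of the 26 in both tables were called. They are induced by interferons, which the pig conceptus is known to secrete at this time. CXCL10, a chemokine, was at 0.534, 26.6 and 68.5 CPM in GE and 61.8, 132 and 631 CPM in S (log2 difference -3.42 ± 0.62, adjusted p = 0.00535). GBP1, a guanylate binding protein, was at 4.54, 62 and 368 CPM in GE and 55.7, 356 and 1193 CPM in S (log2 difference -2.48 ± 0.35, adjusted p = 0.00204). In both genes the gilt of PG39 was lowest and the gilt of PG139 highest in both compartments, so gilts differed together in GE and S. Without the gilt as a block the adjusted p was 0.0845 for CXCL10 and 0.308 for GBP1. Without the gilt of PG139, 21 genes of the list were called higher in S and 1 in GE. IFI6 did not share that order, at 34.7, 32.1 and 42.7 CPM in GE and 283, 149 and 126 CPM in S (log2 difference -2.24 ± 0.31, adjusted p = 0.00169), and OAS2 differed by -1.59 ± 0.20 (adjusted p = 0.017 without the block). Over the S libraries the epithelial, endothelial and pericyte sums had the order of CXCL10 and GBP1 and the leukocyte sum the reverse order, and the part of these cells was not tested.

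The promoters of 2 of these genes are printed because the core letters of the interferon-stimulated response element (ISRE) stood in many of them. The motif GAAA, 2 bases, GAAA, on either strand, stood in 9 of 18 effector promoters (50%) and in 2.59% of all promoters, with 4.14% among the genes called higher in S and 1.76% among those higher in GE. In the 250 bases before the 5′ ends of IFI6 (chr6:84858073-84858322, minus strand) and OAS2 (chr14:38847698-38847947, minus strand), capitals mark the motif or its reverse complement.
IFI6: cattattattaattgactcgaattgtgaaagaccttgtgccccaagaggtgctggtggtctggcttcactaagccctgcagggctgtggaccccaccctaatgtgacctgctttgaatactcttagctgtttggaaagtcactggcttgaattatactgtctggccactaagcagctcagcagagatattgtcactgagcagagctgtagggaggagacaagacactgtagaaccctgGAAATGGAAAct
OAS2: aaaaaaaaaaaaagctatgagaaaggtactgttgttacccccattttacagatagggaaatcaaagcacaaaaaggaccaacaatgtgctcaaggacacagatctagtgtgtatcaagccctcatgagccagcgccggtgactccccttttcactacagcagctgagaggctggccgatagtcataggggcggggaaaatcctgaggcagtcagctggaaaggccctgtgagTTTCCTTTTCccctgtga
The match of IFI6 lay 2 bases and that of OAS2 8 bases from the annotated 5′ end. For the collagens the CCAAT box (CCAAT) was searched too and stood in 4 of 10 promoters (40%), against 32.5% of all.

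Complement genes had a like direction. Of 22 listed 18 passed, 10 were called higher in S and 1 in GE, CLU. C1S was at 181, 205 and 253 CPM in GE and 1859, 1318 and 915 CPM in S (log2 difference -2.61 ± 0.31, adjusted p = 0.00104), and its inhibitor SERPING1 at 121, 151 and 165 and 1080, 813 and 665 CPM (log2 difference -2.51 ± 0.27, adjusted p = 0.000678). C3 and C4A, the central components, were not called (adjusted p = 0.0465 and 0.0796).

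Of the 24 cell cycle genes listed 17 passed, 4 were called higher in S and none in GE. Among the 12 in both tables, 2 were called higher in S and none in GE (over all genes 14.9% and 11.9%). MKI67, the proliferation marker Ki-67, was at 0.267, 3.05 and 1.22 CPM in GE and 14.5, 17.7 and 33.3 CPM in S (log2 difference -3.94 ± 0.59, adjusted p = 0.00249), and in BV it averaged 42.7 CPM. CCND2, a cyclin, differed by -2.97 ± 0.28 and CDKN1C, an inhibitor of the cycle, by -2.54 ± 0.34.

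Among leukocyte markers 8 of 13 measured were called higher in S, and 4 of the 6 in both tables. PTPRC, the pan-leukocyte marker CD45, was at 19.2, 17.4 and 24.3 CPM in GE and 109, 99.4 and 109 CPM in S (log2 difference -2.37 ± 0.21, adjusted p = 0.000356), and CD163, a macrophage marker, at 11.8, 3.97 and 2.23 and 162, 71.7 and 17.8 CPM (log2 difference -3.66 ± 0.29, adjusted p = 0.000287, and 0.0108 without the block). CD14 was higher in every GE library without a call, at 30.2, 73 and 46.2 CPM against 14.9, 9.01 and 2.34 CPM (log2 difference 2.70 ± 0.58, adjusted p = 0.0104).

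The 2 epithelia of the same gilts differed in 2134 genes (16.0%), 927 higher in GE and 1207 lower, in a fit over the 12 libraries of 4 compartments. This comparison shares its GE libraries with that of GE against S, so the values stand side by side. ACP5 was 3.91 higher in GE than in LE on the log2 scale (adjusted p = 0.000349) and MEP1B 3.53 (adjusted p = 0.00142). LEF1 was 2.36 higher (adjusted p = 0.00314) and EGFR 1.84 (adjusted p = 0.00186), while CDH1, EPCAM and ERBB3, with large differences against S, were not called against LE. In PTGS2 the log2 difference of GE minus LE was -9.96 (adjusted p = 0.000151), and in TRPV6 it was -10.39 (adjusted p = 0.000114). LE libraries had fibroblast sums of 12770 to 21930 CPM, above those of GE, and the collagens were called higher in LE as well, COL3A1 by -1.44. The count was 322 without the gilt of PG39 and 0 without the gilt of PG43.

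S was also compared with BV of the same gilts. No gene was called between them at 1% (0.0%) in edgeR's quasi-likelihood test, 152 were at 5% and 1848 had an unadjusted p under 0.05. Endothelial sums were 1095 to 3348 CPM in S and 2153 to 3522 CPM in BV, and the epithelial sums of BV were 363.3 to 656.3 CPM. In each gilt the smooth muscle and pericyte sum was higher in BV, at 1341, 1561 and 7880 CPM (PB39, PB43, PB139) against 750.6, 886.6 and 1905 CPM in S. The fibroblast sum was higher in S, at 105300, 76550 and 50860 CPM against 53300, 53730 and 38800 CPM in BV. All 12 endothelial markers were called higher in S than in GE, but 7 of them passed the filter through the S table alone, and 5 were in both tables. S held these endothelial markers at summed levels that overlapped with those of BV.

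The difference between GE and S was also fitted in the 4 cyclic gilts and compared with that in pregnant gilts. In cyclic gilts, 5307 of the same genes were called, and 3134 were called in both states with the same sign, which is 87.4% of those of pregnant and 59.1% of those of cyclic gilts. Over all members the differences had a Pearson r of 0.931, given as a description across genes, which are not independent replicates. The interaction of compartment and pregnancy was called for no gene (0.0%) in edgeR's quasi-likelihood test, with a smallest adjusted p of 0.0722 and 1160 genes at an unadjusted p under 0.05. DESeq2 called 37 interactions, 28 of them with a difference shifted towards GE in pregnancy. ACP5 was a gene with like differences in both states, 6.72 in pregnant and 6.65 in cyclic gilts, although its mean in GE was 5846 CPM in pregnant and 1517 CPM in cyclic gilts.

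**Figure D5:**
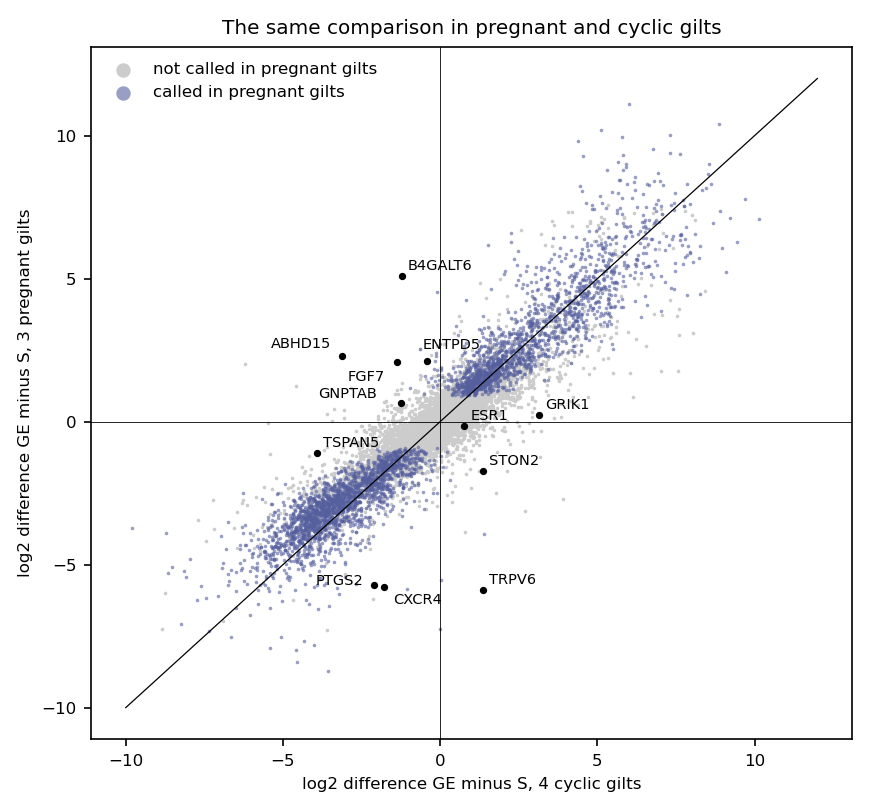
Log2 difference of GE minus S in 4 cyclic gilts (x axis) and 3 pregnant gilts (y axis) for each member; the line marks equal differences. Most genes follow the line, and TRPV6 has opposite signs in pregnant and cyclic gilts.

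The genes with the smallest interaction p-values in edgeR's quasi-likelihood test with the block, none of them called in it, were ABHD15, B4GALT6, GNPTAB, TSPAN5 and ENTPD5 towards GE and TRPV6, CXCR4, YIPF4, STON2 and GRIK1 towards S. ABHD15, a hydrolase-like protein, differed by 2.30 in pregnant and -3.13 in cyclic gilts (interaction adjusted p = 0.0722). B4GALT6, which makes lactosylceramide, differed by 5.10 and -1.22 (interaction adjusted p = 0.118), but its pregnant GE level was 61.1, 41.2 and 0.203 CPM, with almost nothing in the gilt of PG139. GNPTAB differed by 0.67 and -1.24, ENTPD5 by 2.10 and -0.42 and TSPAN5 by -1.09 and -3.93. CXCR4, the receptor of the chemokine CXCL12, differed by -5.79 and -1.77, YIPF4 by -0.05 and 1.20, STON2 by -1.73 and 1.35 and GRIK1 by 0.24 and 3.15. TRPV6 had differences of opposite sign, -5.90 in pregnant and 1.35 in cyclic gilts (interaction adjusted p = 0.212). In cyclic gilts it was at 2.17 to 4.79 CPM in GE and 0 to 5.85 CPM in S, so its difference there was one between low levels. In cyclic gilt 78 its level in S exceeded that in GE. The S library PS41, which did not enter the fit, had 123.5 CPM of TRPV6 and the highest epithelial marker sum of the pregnant S libraries, 846.6 CPM.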

How the data were processed

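RNA-seq libraries of laser microdissected endometrium were used as deposited counts: whole reads per NCBI gene, 1 column per library, which the authors made by trimming with Trim Galore, mapping to Sscrofa11.1 with Hisat2, removing duplicates with nudup and counting with QuasR (versions not given in the sources used here). The authors' filtered tables, made with a CPM minimum whose value is not given, defined the genes tested. Duplicate removal by molecular identifier brings counts closer to molecules. Reads of 2 ribosomal RNA genes made up 11.6% to 16.7% of the 6 libraries.

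Counts of 13379 genes were tested with edgeR 4.0.16 in R 4.3.3 (TMM, quasi-likelihood F test, gilt as a block, Benjamini and Hochberg adjustment, false discovery rate of 1%). GE and S of a gilt came from the same animal, and their deviations from the group means correlated at 0.084, 0.165 and 0.116. DESeq2 1.42.0 and other alternatives are given in the closing section. The model fits were tested on simulated counts. CPM used TMM over 31 libraries, which shifts differences by -0.0238 against the scale of the test. Replicate libraries differed by 10.6 to 32.8 times the sampling variance (chi-square per degree of freedom), and each was counted once. Groups were taken from the sample labels. No column of per-sample values was left unused (0), and PG41 was not analysed here.

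The members and the gene lists were chosen with earlier results of these data known. Of 685 listed symbols 675 matched the annotation and 579 were members. PAX8, COL6A1, UABP2, CYP26B1, CA2, TMEM16A and MUC16 were not matched, and TF, B2M and C4BPA were ambiguous. Genes named were, in each direction, the 8 with the largest called difference at a mean of at least 50 CPM, the 5 with the largest called difference in CPM, the 5 with the smallest interaction p, and from each list up to 4 called per direction and 2 not called, by level, with any steroid receptor, ligand or receptor. FOXA2, HAND2, FOXJ1, SAL1, CFTR and AQP3 were named after their values were seen. Promoter windows were read from RefSeq's Sscrofa11.1 at the gene start, which may not be the start used in these cells. Results of some genes that the rule names are not reported here.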

Additional observations from a re-analysis of the deposited data

Results flagged for a closer look

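For 7 of the genes given above, GE minus S had the same sign in all 3 pregnant gilts and the opposite sign in all 4 cyclic gilts. The interaction of compartment and pregnancy was tested for each and was not called for any in edgeR's quasi-likelihood test with the block. Over all members DESeq2 called 37 interactions and edgeR without the block called 2. Over all members such opposite signs stood in 124 genes (0.927%). The 7 came from 179 genes with values in the text. ABHD15, B4GALT6, GNPTAB and STON2 were named for their small interaction p, so the 7 cannot be weighed against the share over all members.

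The log2 difference, pregnant minus cyclic, was 5.38 in ABHD15 (unadjusted p = 5.4e-06, adjusted p = 0.0722). It was 6.24 in B4GALT6 (adjusted p = 0.118), 1.88 in GNPTAB (adjusted p = 0.142) and 3.39 in FGF7 (adjusted p = 0.466). In the other direction it was -3.12 in STON2 (adjusted p = 0.217), -1.83 in PAQR7 (adjusted p = 0.271) and -0.97 in ESR1 (adjusted p = 0.303). Some of the opposite signs rested on small differences between GE and S. B4GALT6 was at 0.203 CPM in PG139 and 0 in PS139, and ESR1 at 274 CPM in PG39 and 279.6 in PS39. FGF7 was at 52.7 CPM in PG139 and 47.3 in PS139, and in cyclic gilt 40 at 19.11 CPM in GE and 20.99 in S. FGF7 averaged 628 CPM and STON2 239.5 CPM in LE of the pregnant gilts, and the part of luminal epithelium in their values was not tested. GE and S of pregnant gilts are groups of 3, in which single libraries were not tested as outliers.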

How the results depend on the processing

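The count of 3584 genes called in GE against S, with the gilt as a block, was 3748 with no replicate block and 4089 with no block and the S library PS41 added. It was 4360 in DESeq2, 5289 in the robust GLM with the likelihood ratio test, 3608 with RLE size factors, 3587 with library totals, 3574 with filterByExpr, 4566 with no filter, 3578 without rRNA genes and 3601 with counts thinned to the smallest library. It was 2121 of 10461 in genes of both tables and 5780 at a false discovery rate of 5%. Leaving out 1 gilt gave 0 to 4158 calls, with 1 residual degree of freedom, and 0 came from leaving out the gilt of PG43. RLE size factors and library totals shifted all differences by 0.0085 and 0.0516 on the log2 scale. The interaction count of 0 was 2 with no replicate block and 37 in DESeq2, and 0 with each gilt left out. GE against LE gave 2029 with no replicate block and 0 to 2532 with a gilt left out, and S against BV 1 with RLE size factors and 0 to 16 with a gilt left out. Of the 148 called genes with values above, none changed sign, and all but 19 stayed called in every alternative that kept all 3 gilts. Without the gilt of PG43 none stayed called. Among those not called with no replicate block the adjusted p of CXCL10 was 0.0845, of GBP1 0.308, of LOC106509981 0.0337, of B4GALT6 0.0311, of FUT2 0.0192, of OAS2 0.017 and of CD163 0.0108. With no block and PS41 added the adjusted p of AQP3 was 0.514, of LOC100626264 0.0741, of GABRP 0.0581 and of PLPP4 0.0161. Sign changes came only in genes not called. With a gilt left out PTCH1 ranged from -0.065 to 0.139, YIPF4 from -0.127 to 0.021, FMOD from -0.206 to 1.276, AXIN2 from -0.253 to 0.437, HPGD from -0.102 to 0.487 and SLC2A1 from -0.214 to 1.561. PTCH1 was also at -0.008 without the gilt of PG43, -0.003 in genes of both tables, -0.009 in thinned counts, YIPF4 at 0.001 with library totals and 0.025 with no filter, and FMOD at -0.038 with no block and PS41. The causes were not tested. At this depth a gene at or under the floor in both compartments cannot show a difference.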
